A study of Mus musculus with 2 samples.

Results

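The hypothalamus-like brain spots were 300 of the 2983 spots of a mouse brain section that held at least 3000 counts and 200 features. They were chosen by ranking those spots on the share of counts that came from 6 genes, Dlk1, Zim1, Peg10, Hap1, Pmch and Avp, and taking the highest 300. The other 2683 spots are called the remaining spots. The section was 5 µm of FFPE brain (formalin-fixed and paraffin-embedded) from a normal mouse, read with spRandom-seq, in which randomly primed copies of total RNA receive the barcode of the array spot beneath them. The series also holds 1 section of normal heart on an array with the same 4992 barcodes, for 9984 barcodes in all. Each tissue gave 1 library, no replicate exists, and strain, age, sex and section plane were not given in the sources used here. Both samples carry the same treatment label, reverse transcription with a primer lacking cell barcode 2. A spot is a small region that can hold several cells or parts of cells, so fewer cells of a type and less RNA per cell cannot be told apart.

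The hypothalamus lies at the base of the forebrain below the thalamus and holds small nuclei of neurons that release peptides. Magnocellular neurons of its paraventricular and supraoptic nuclei send vasopressin and oxytocin to the posterior pituitary, neurons of its lateral area make melanin-concentrating hormone or orexin, and neurons of the arcuate nucleus make pro-opiomelanocortin or agouti-related peptide. These neurons govern feeding, water balance, sleep, body temperature and hormone release. The region is also known for high expression of several imprinted genes, which are transcribed mainly from the copy inherited from 1 parent.

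Of the ranking genes, Pmch encodes the precursor of melanin-concentrating hormone and Avp the precursor of vasopressin. Dlk1 and Peg10 are imprinted genes active on the paternal copy, Zim1 is one active on the maternal copy, and Hap1 encodes huntingtin-associated protein 1, a trafficking protein abundant in the hypothalamus. The 100 bases before 1 annotated transcription start per gene are shown for the 2 peptide genes and for 2 imprinted genes of the ranking. Also shown are 2 peptide genes outside it whose counts turned out to track the chosen spots. These windows hold a TATA-type element close to that start in the peptide genes and none in the imprinted genes. For Oxt, Dlk1 and Zim1 the start used lies inside the annotated gene, and the bases before the gene's outer end are not shown. The sequences are from RefSeq on GRCm38.p6, an older build than that of the counts, and are written 5′ to 3′ along the gene's strand. Capitals mark the motif TATAAA or CATAAA nearest the start.
Pmch, chr10:88090972-88091071, plus strand: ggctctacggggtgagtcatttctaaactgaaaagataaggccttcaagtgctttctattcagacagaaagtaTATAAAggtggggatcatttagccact
Avp, chr2:130582589-130582688, minus strand: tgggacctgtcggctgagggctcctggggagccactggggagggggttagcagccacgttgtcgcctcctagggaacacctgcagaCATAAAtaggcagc
Oxt, chr2:130576069-130576168, plus strand: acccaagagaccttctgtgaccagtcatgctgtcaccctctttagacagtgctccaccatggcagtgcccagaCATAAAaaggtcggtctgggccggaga
Hcrt, chr11:100762932-100763031, minus strand: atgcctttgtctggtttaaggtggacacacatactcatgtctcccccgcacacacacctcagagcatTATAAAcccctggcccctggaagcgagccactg
Dlk1, chr12:109452723-109452822, plus strand: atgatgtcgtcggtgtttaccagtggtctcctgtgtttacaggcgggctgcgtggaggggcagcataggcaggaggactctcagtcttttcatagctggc
Zim1, chr7:6696433-6696532, minus strand: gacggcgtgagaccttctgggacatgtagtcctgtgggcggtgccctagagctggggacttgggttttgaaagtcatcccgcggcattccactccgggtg

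In Pmch and Oxt the motif began 27 bases before the start, in Hcrt 33 and in Avp 14. Over all 32851 mouse promoters of the table the 100-base window held TATAAA on either strand in 5.56% and CATAAA in 4.33%. Of 27 promoters of the hypothalamic peptide genes (24 of 29 genes matched), 8 held TATAAA (29.6%) and 4 held CATAAA (14.8%). Of 52 promoters of imprinted genes (35 of 45 matched), 4 held TATAAA (7.69%) and 1 held CATAAA (1.92%). A match in such a window describes the letters and does not show a working site.

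The ranking genes' own values chose the spots and are given as description. They summed to 1302 CPM (counts scaled to a total of 1000000 over the group) in hypothalamus-like spots, against 40.7 CPM in remaining spots and 8.69 CPM in the heart section. At the same 300 barcodes of the heart array they gave 9.47 CPM. Pmch had 1599 counts in 150 hypothalamus-like spots, at most 99 in 1 spot, against 78 counts over the remaining spots. Avp had 583 counts in 63 spots, 112 of them in 1 spot, against 31. Peg10 (594 counts in 194 spots, against 392), Hap1 (457 in 196 spots, against 537), Dlk1 (284 in 123 spots, against 106) and Zim1 (213 in 127 spots, against 180) were spread more evenly. The median hypothalamus-like spot held 7 counts of the 6 genes. There were 60 spots with 1 to 3 such counts, 124 with 4 to 9 and 116 with 10 or more. At least 3 of the 6 genes were found in 172 spots, and only 1 in 27. A spot with several of the genes could still owe most of its ranking counts to 1 of them.

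The boundary of the group fell in a continuous decline. The highest spot had 7908 CPM (67 of its 8472 counts). The last spot taken had 471.9 CPM, from 2 of 4238 counts, and the first one left out had 471.5 CPM, from 8 of 16966. Of the remaining spots, 1926 had no count of any ranking gene.

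**Figure D1:**
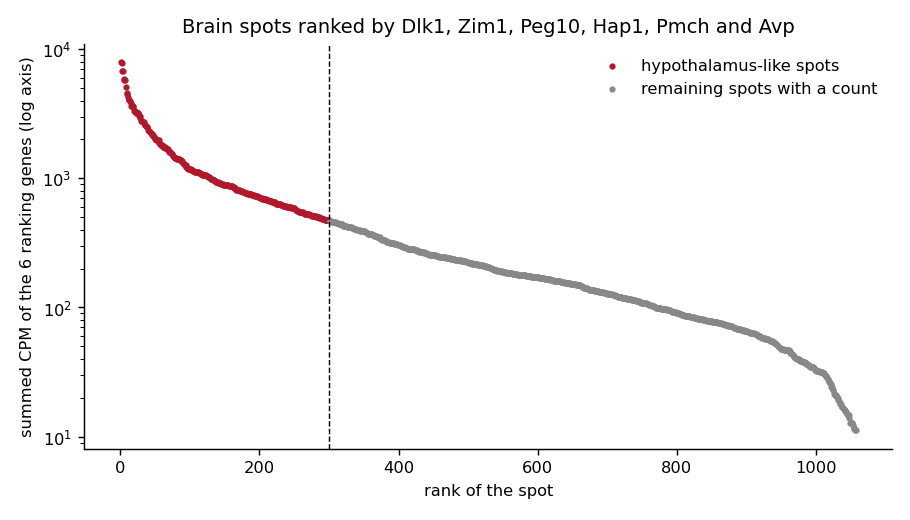
Summed CPM of the 6 ranking genes (log axis) against rank, for each spot that held a count of them; red points are the 300 hypothalamus-like spots and the dashed line is the boundary. The curve falls steeply over the first spots and crosses the boundary, at 471.9 CPM, without a step.

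When each ranking gene was left out of the ranking in turn, it was higher in the 300 spots that the other 5 genes chose. The spots were chosen with earlier results of these data known, so these ratios describe how the 6 genes vary together here. They are no independent test of the group. Dlk1 reached 81.3 CPM there, against 5.00 CPM elsewhere, a ratio of 16.3 (95% interval 13.2 to 20). Peg10 (159 against 16.4 CPM, 9.70-fold, 8.54 to 11.0), Zim1 (56.2 against 7.09 CPM, 7.94-fold, 6.45 to 9.74) and Hap1 (125 against 19.6 CPM, 6.37-fold, 5.58 to 7.26) followed. Pmch (171 against 36.3 CPM, 4.71-fold, 4.23 to 5.23) and Avp (58.8 against 13.9 CPM, 4.25-fold, 3.53 to 5.09) had the smallest ratios, and 239 to 276 of the 300 spots were kept. Only Dlk1 had more counts in the chosen spots than elsewhere, 227 against 163. Pmch had 498 against 1179 counts and Avp 162 against 452. With 150 spots in place of 300, only 4 of the 6 genes stayed at 2-fold or more. Held-out Pmch came to 1.99-fold and held-out Avp turned to 0.516-fold. Every interval in the text is an exact conditional binomial interval for counting error, which takes each count as a separate molecule and says nothing of other sections.

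Depth and RNA classes were similar but not equal. The hypothalamus-like spots held 2864168 counts, with a median of 6951 per spot (quartiles 4612.75 and 10850, range 3005 to 88217), and the remaining spots 32495206, with a median of 8200 (5385 and 12453, 3000 to 125909). Thinned to 3000 counts, the median number of features was 1300 in hypothalamus-like and 1289 in remaining spots. Ribosomal RNA made up 33.4% of counts in hypothalamus-like and 31.0% in remaining spots, mitochondrial RNA 5.58% and 4.72%, and small RNA 0.215% and 0.181%. The part of these shares in the results below was not tested beyond the alternative scaling given with the counts. In all, 37300503 counts were recorded for brain and 44768698 for heart.

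Outside the ranking genes, 6074 features reached 20 CPM in either group. Of them 209 (3.44%) were at least 2-fold higher in hypothalamus-like spots and 320 (5.27%) at least 2-fold lower. These 2 limits are the size rule, and "higher" and "lower" are used only of features past it; no test was possible with 1 library. The median log2 ratio over the 6074 features was 0.03. Scaled to the counts outside ribosomal, mitochondrial and small RNA, the median moved to 0.12 and the counts to 347 higher and 321 lower, so that 51.9% of called features were higher in place of 39.5%.

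Among the higher features were peptide precursors, components of secretory granules, imprinted genes and receptors for hormones and transmitters. The lists used for these counts hold none of the ranking genes, and the medians below add 0.5 CPM to each group. Not all listed genes could pass. In either group 20 CPM was reached by 5 of 27 neuropeptide, 4 of 26 transcription factor and 27 of 42 imprinted genes. It was reached by 19 of 20 granule and 17 of 35 receptor genes. The 3.44% given above is over features at that level. Over all 32676 features with a count the median log2 ratio was -0.08.

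Among 27 hypothalamic neuropeptide genes, 4 were higher, 1 was lower and 22 did not pass. Oxt, which encodes the oxytocin precursor, had 75 counts in 23 hypothalamus-like spots (at most 15 in 1 spot), against 10 counts in all remaining spots, or 26.2 against 0.308 CPM, a ratio of 85.1 (43.8 to 185). Pomc, the pro-opiomelanocortin precursor of melanocortins, gave 22.3 against 0.523 CPM (42.7-fold, 24.7 to 77.8), from 21 spots. Cartpt, the precursor of an appetite-related peptide, gave 39.1 against 1.02 CPM (38.5-fold, 25.9 to 58.6), from 53 spots. Hcrt, the orexin precursor, gave 46.8 against 1.35 CPM (34.6-fold, 24.4 to 49.7), from 44 spots. The sizes of these ratios were not stable. The lowest over the alternatives were 12.8 for Oxt and 8.52 for Cartpt, both ranked without Pmch and Avp, and 8.39 for Pomc and 19.96 for Hcrt, both with 150 spots. The highest were 183 for Oxt, 81.2 for Pomc, 73.3 for Cartpt and 96.1 for Hcrt. For these 4 genes most counts of the section's ranked spots lay in the 300 hypothalamus-like ones.

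Avp and Oxt are neighbouring paralogs on chromosome 2, and the sources used here do not state how reads shared between similar genes, or strand, were handled, so the split of counts between them is uncertain. The lower gene was Cck, the cholecystokinin precursor, a peptide abundant in cortex, with 4.19 against 32.9 CPM. Several further peptides had ratios above 2 but lay under 20 CPM and did not pass. Gal (galanin) had 22 counts against 11 (22.7-fold, 10.5 to 51.8), Trh (thyrotropin-releasing hormone) 22 against 12 (20.8-fold, 9.86 to 46.1) and Tac1 (tachykinin) 50 against 114 (4.98-fold, 3.49 to 7.0). Agrp, the agouti-related peptide, reached 18.5 against 11.4 CPM (1.62-fold, 1.19 to 2.16). Kiss1, Nms and Gnrh1 had no count in hypothalamus-like spots. The list's median log2 ratio was 0.94, and its summed level 280 against 107 CPM. The count of 4 fell to 0 at a limit of 50 CPM and was 12 at 5 CPM.

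The transcription factors that pattern the hypothalamus were mostly low in counts. Of 26 listed, 3 were higher and none lower, with a median log2 ratio of 1.11. Sim1, which specifies the paraventricular and supraoptic nuclei, gave 48.5 against 8.16 CPM (5.95-fold, 4.81 to 7.33). Six3, a forebrain homeobox factor, gave 22.3 against 6.62 CPM (3.38-fold, 2.51 to 4.48), and Pou3f2, a POU factor that acts with Sim1 in neuroendocrine neurons, 25.8 against 11.6 CPM (2.23-fold, 1.71 to 2.86). Under the 20 CPM limit stood Otp (48 counts in each group, 11.3-fold in CPM), Nkx2-1 (18 against 22 counts, 9.28-fold), Six6 (19 against 13, 16.6-fold) and Fezf1 (17 against 8, 24.1-fold), all developmental regulators of the region. Arnt2, the partner of Sim1, reached 135 against 121 CPM and did not pass. Pou3f2 and Six3 came to 1.58-fold and 1.79-fold at their lowest over the alternatives. The count of 3 became 1 for the per-spot mean of CPM, 0 at 50 CPM and 9 at 5 CPM.

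Imprinted genes outside the ranking were the longest list and had the most higher members, 12 of 42 listed, with none lower. Their median log2 ratio was 0.67 and their summed level 8226 against 4321 CPM. Of the 42, 1 (Zrsr1) had no row in the files and 14 did not reach 20 CPM in either group. Peg3, a zinc finger gene on chromosome 7, had 1669 counts in 278 of 300 hypothalamus-like spots and gave 583 against 195 CPM (2.98-fold, 2.83 to 3.15). Its neighbour Usp29, a ubiquitin protease gene, gave 462 against 133 CPM (3.49-fold, 3.28 to 3.71). Zim1, a ranking gene, lies beside them, so these 3 share a locus and are not independent. Ndn (necdin), from the Prader-Willi region of the same chromosome, gave 85.2 against 17.5 CPM (4.87-fold, 4.17 to 5.66). Magel2, from that region too, had 31 counts against 24 (14.7-fold, 8.32 to 26.1) and was under 20 CPM, and Snrpn gave 53.1 against 30.7 CPM and did not pass.

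Imprinted genes on other chromosomes were among the 12 as well. Zdbf2, a regulator of growth and feeding in mouse pups, gave 178 against 33.6 CPM (5.29-fold, 4.75 to 5.88), with a count in 66.3% of hypothalamus-like and 25.6% of remaining spots. Nnat, which encodes the membrane proteolipid neuronatin, gave 134 against 27.3 CPM (4.89-fold, 4.33 to 5.52), and Nap1l5 301 against 82.0 CPM (3.67-fold, 3.40 to 3.97). Plagl1 (47.5 against 12.6 CPM), Grb10 (172 against 49 CPM), Mest (66.7 against 21.9 CPM) and Gnas, the stimulatory G protein gene (505 against 223 CPM), were higher too. Asb4, near Peg10 on chromosome 6, gave 21.3 against 4.28 CPM and Impact 244 against 119 CPM (2.05-fold, at its lowest 1.86 over the alternatives). The maternally expressed long non-coding RNAs of the Dlk1 locus moved less. Meg3 gave 3390 against 1851 CPM (1.83-fold, 1.79 to 1.87), Rian 664 against 473 CPM (1.40-fold) and Mirg 68.1 against 48.2 CPM (1.41-fold), and none passed. Meg3 was the largest single part of the summed level of the list in both groups. The count of 12 stayed within 1.5 times under every alternative run.

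Genes of the dense-core granule, the vesicle in which peptides are cut and stored, divided. Of 20 listed, 6 were higher and none lower, with a median log2 ratio of 0.69. Scg2, a granin that is itself cut into peptides, had 969 counts in 207 hypothalamus-like spots and gave 338 against 70.4 CPM (4.80-fold, 4.45 to 5.18). Baiap3, which acts in dense-core vesicle traffic, gave 53.4 against 4.77 CPM (11.2-fold, 8.90 to 14.1, and 6.73 to 22.0 over the alternatives). Resp18, a granule protein, gave 38.4 against 5.32 CPM (7.21-fold, 5.63 to 9.21). The prohormone convertase Pcsk1 (57.6 against 22.6 CPM, 2.55-fold), its inhibitor precursor Pcsk1n (44.7 against 16.8 CPM, 2.65-fold) and Vgf (58.3 against 24.3 CPM, 2.40-fold) were also higher. Other genes of the same organelle did not pass: the second convertase Pcsk2 gave 251 against 389 CPM, carboxypeptidase E (Cpe) 325 against 395 CPM and chromogranin B (Chgb) 77.5 against 133 CPM. The summed level of the list was therefore close between groups, 3122 against 2783 CPM.

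Of 35 receptors and signalling genes for hormones and peptides, 7 were higher and none lower, with a median log2 ratio of 0.72. Irs4, an insulin receptor substrate, had 149 counts in 64 hypothalamus-like spots, 23 of them in 1 spot, against 60 counts elsewhere. Its levels were 52.0 and 1.85 CPM (28.2-fold, 20.7 to 38.7), and 24.6-fold without the spot that held the most. Over the alternatives the ratio of Irs4 ran between 7.22, with 150 spots, and 54.1. That of Gabrq ran between 8.17 and 33.0, and that of Gpr101 had a lowest value of 4.79. Gabrq, the theta subunit of the GABA-A receptor, gave 30.4 against 2.09 CPM (14.5-fold, 10.4 to 20.2). Gpr101, an orphan receptor known from the hypothalamus, gave 30.0 against 3.60 CPM (8.34-fold, 6.24 to 11.1). Ghr, the growth hormone receptor, gave 166 against 47.4 CPM (3.50-fold, 3.16 to 3.89), and Hcrtr2, an orexin receptor, 27.6 against 9.94 CPM (2.77-fold, 2.14 to 3.56). Tacr3, the neurokinin B receptor, gave 25.5 against 10.4 CPM (2.45-fold), and Lepr, the leptin receptor, 27.2 against 12.8 CPM (2.13-fold, 1.65 to 2.72). Ranked without Pmch and Avp, Tacr3 came to 1.20-fold, and the lowest ratios over the alternatives were 1.03 for Lepr and 1.55 for Hcrtr2. The steroid receptor genes Esr1 (58.7 against 34.7 CPM) and Nr3c2 (147 against 279 CPM) did not pass.

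**Figure D2:**
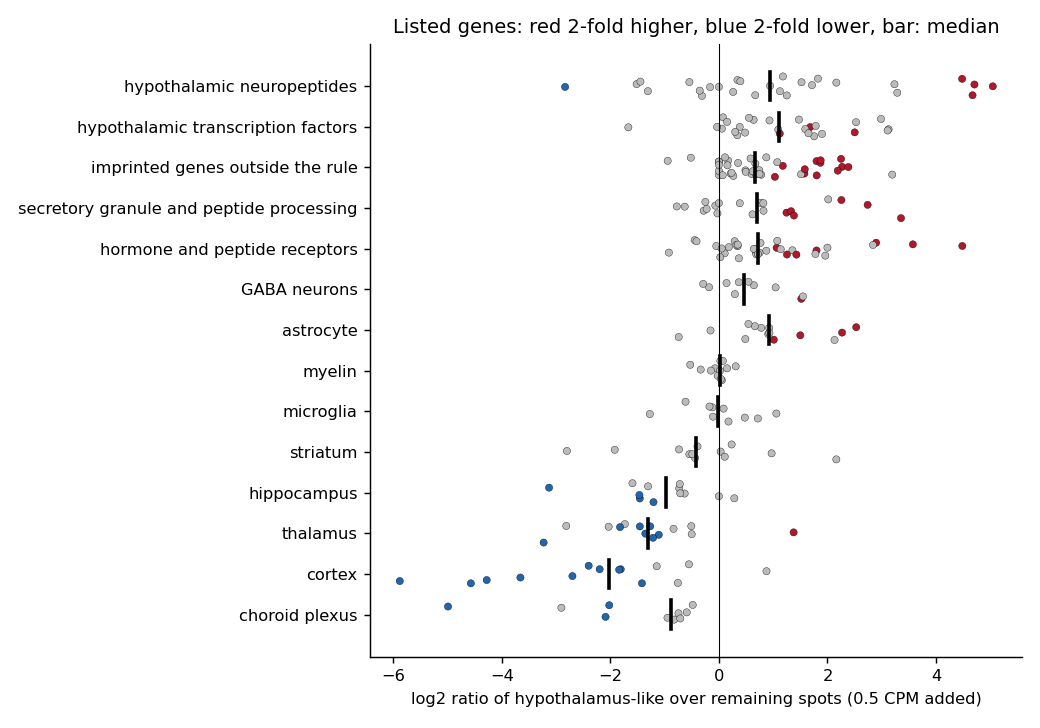
Log2 ratio of hypothalamus-like over remaining spots, with 0.5 CPM added to each, for the genes of 14 lists; red and blue points passed the size rule as higher and lower, gray points did not, and the bar is the list median. Peptide, transcription factor, imprinted, granule, receptor and astrocyte genes lie mostly right of 0, and cortex and thalamus genes left of it, with a cortex median of -2.02.

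Beyond the lists, the largest ratios at 50 CPM or more in hypothalamus-like spots included several genes that are less often cited for the region. Zcchc12, a zinc-finger coactivator, gave 58.3 against 8.34 CPM (6.99-fold, 5.73 to 8.51) and Dgkk, a diacylglycerol kinase, 53.8 against 7.91 CPM (6.80-fold, 5.53 to 8.33). Caprin2, an RNA-binding protein, gave 61.4 against 9.79 CPM (6.28-fold, 5.19 to 7.57). The lowest ratios over the alternatives were 3.42 for Caprin2 and 3.50 for Dgkk. The sodium channel gene Scn9a had 302 counts in 129 spots and gave 105 against 18.5 CPM (5.69-fold, 4.94 to 6.55). The GABA-A receptor subunit gene Gabrg1 (67.4 against 13.9 CPM), the acid alpha-glucosidase gene Gaa (154 against 34.8 CPM) and the membrane protein gene Tmem130 (193 against 42.7 CPM) were 4.84, 4.43 and 4.52 times as high. Among non-coding genes, Rmst, a long RNA of developing neurons, had 506 counts and gave 177 against 43.4 CPM (4.07-fold, 3.67 to 4.51). Gm45846 (63.2 against 20.4 CPM) and C130073E24Rik (133 against 45.2 CPM) came next.

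Most listed cortex genes and some genes of hippocampus and thalamus were lower. In 14 cortex genes 10 were lower and none higher, with a median log2 ratio of -2.02. Slc17a7, the vesicular glutamate transporter of cortical and hippocampal neurons, had 13 counts in 12 hypothalamus-like spots and gave 4.54 against 119 CPM (0.0381-fold, 0.0203 to 0.0652). Neurod6, a cortical transcription factor, had no count, against 940 in remaining spots (28.9 CPM). Tbr1 had 2 counts, against 739. Of 12 hippocampus genes 4 were lower, led by the calcium sensor Hpca (13.3 against 120 CPM), and of 14 thalamus genes 7 were lower, among them the kinase Prkcd (6.28 against 63.1 CPM) and the transcription factor Tcf7l2 (48.2 against 104 CPM). Not all of these calls were stable. Cpne6, Ociad2 and Dsp of the hippocampus list lost the 2-fold under some alternatives, as did Tcf7l2, Ntng1 and Adarb1 of the thalamus list. Hpca and Prkcd kept it under all.

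Exceptions existed in both directions. Calb2 (calretinin), listed for thalamus, was higher, with 25.5 against 9.51 CPM, as was Ecel1, listed for the extended amygdala, with 22.3 against 2.00 CPM (11.2-fold, 7.79 to 16). None of 12 striatum genes passed, of which 5 reached 20 CPM, with summed levels of 775 against 947 CPM. No gene of the 12 for midbrain and hindbrain reached 20 CPM, so none could pass. They summed to 23.0 against 26.9 CPM. Choroid plexus genes, which mark the tissue of the ventricles, summed to 81.0 against 436 CPM, and Ttr gave 4.54 against 160 CPM. Pituitary genes stayed at 8.38 against 6.65 CPM, with Gh, Prl and Fshb without a count in hypothalamus-like spots.

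A few genes of GABA neurons and astrocytes were higher, and none of the myelin, microglia or vessel lists. Gad2, which makes GABA, was the only 1 of 10 GABA neuron genes that passed, with 201 against 70.0 CPM (2.88-fold, 2.62 to 3.15); Gad1 gave 91.8 against 71.1 CPM. Slc17a6, the glutamate transporter of subcortical neurons, gave 71.2 against 60.6 CPM. Of 14 astrocyte genes 4 were higher, with a median log2 ratio of 0.92. Gfap, the astrocyte filament protein, gave 81.7 against 16.6 CPM (4.93-fold, 4.21 to 5.76, and 2.60 to 9.73 over the alternatives), Itih3 25.8 against 4.06 CPM and Slc6a11, a GABA transporter, 96.4 against 33.8 CPM. Aqp4, the water channel, gave 48.2 against 23.6 CPM, a ratio of 2.04 that was 1.86 without 1 spot and under 2 in 7 of 14 alternatives. The changes of floor among those 14 could not alter a ratio. The astrocyte glutamate transporter Slc1a2 went the other way, with 520 against 869 CPM, so that the list summed to 1349 against 1398 CPM. Myelin genes summed to 642 against 644 CPM, microglia to 89.7 against 85.6 CPM and endothelial and mural genes to 172 against 185 CPM, with none past the rule. Only 7 of 12 myelin, 1 of 10 microglia and 3 of 12 endothelial and mural genes reached 20 CPM and could pass. Meninges and blood genes summed to 64.2 against 94.0 CPM, and the part of these other cell types in the results was not tested.

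The 300 spots were not uniform. Grouped by the ranking gene with the most counts in the spot, 91 were led by Pmch, 74 by Peg10, 41 by Hap1, 39 by Avp, 30 by Zim1 and 25 by Dlk1. Median depths were 8079 counts for Avp, 7821 for Peg10, 6865 for Pmch, 6766 for Hap1, 6305 for Dlk1 and 4171 for Zim1. Other genes differed sharply between these groups. The genes named for them were picked after their values were seen, and each group is set against the other hypothalamus-like spots.

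Avp-led spots held most counts of Oxt and high levels of Sim1 and Pou3f2, which act in magnocellular neurons. Oxt gave 133 against 5.42 CPM (24.6-fold, 13.4 to 48.8), Sim1 209 against 17.5 CPM (11.9-fold, 8.22 to 17.6) and Pou3f2 98.9 against 11.7 CPM (8.48-fold, 5.19 to 14.1). Caprin2 had 135 of its 176 counts in these 39 spots, for 290 against 17.1 CPM (17.0-fold, 11.9 to 24.7). Ebf3, a transcription factor, gave 101 against 11.3 CPM, and the phosphodiesterase gene Pde4b 1456 against 319 CPM. The astrocyte genes followed the same spots: Gfap gave 310 against 37.5 CPM (8.26-fold, 6.30 to 10.9) and Aqp4 146 against 29.2 CPM (5.01-fold, 3.54 to 7.10), and the astrocyte list summed to 2278 CPM in Avp-led spots, against 882 CPM in Pmch-led ones. Gad2, at 71.0 CPM in Avp-led spots, stood at about the level of the remaining spots. Cartpt gave 4.30 CPM.

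Pmch-led spots had another set. Tacr3 gave 76.6 against 8.39 CPM (9.14-fold, 5.28 to 16.5), from 30 of 91 spots, and Cartpt 94.7 against 20.5 CPM (4.62-fold, 3.12 to 6.91), from 38. Nptx1, a neuronal pentraxin, gave 150 against 32.6 CPM (4.61-fold, 3.38 to 6.32), and Alk, a receptor tyrosine kinase, 319 against 121 CPM (2.63-fold). Ell2, a transcription elongation factor, gave 69.7 against 13.5 CPM. Gad2 reached 329 CPM, the highest of the 6 groups, Pomc had no count, and Oxt had 1.39 CPM.

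Dlk1-led spots were set apart by Hcrt, with 223 against 34.1 CPM (6.53-fold, 4.44 to 9.49) from 9 of 25 spots, 13 of its 43 counts in 1 spot. Scg2 gave 859 against 301 CPM (2.86-fold, 2.40 to 3.38) in the same group. Peg10-led spots held 54 of the 64 Pomc counts, in 11 spots, for 56.8 against 5.23 CPM (10.9-fold, 5.47 to 23.9). Irs4 gave 105 against 25.6 CPM there (4.10-fold, 2.89 to 5.90), Ghr 264 against 118 CPM and Plagl1 75.7 against 33.5 CPM. Npy (neuropeptide Y) had 27.3 CPM in Peg10-led spots and at most 5.18 CPM in any other group, the latter from 1 count in Dlk1-led spots. It was found in only 9 hypothalamus-like spots. Without the deepest Peg10-led spot, 18 counts remained in that group, or 20.9 CPM.

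Zim1-led spots showed Ptgds, the prostaglandin D synthase of meninges and choroid plexus, with 192 against 18.8 CPM (10.2-fold, 6.53 to 15.8), 22 of its 39 counts in 1 spot. Their meninges and blood list, which includes Ptgds, summed to 251 CPM, the highest of the 6 groups and above the 94.0 CPM of the remaining spots. That sum came from 51 counts, most of them the 39 of Ptgds, so it is no separate observation. The part of such tissue in these spots was not tested. Hap1-led spots had Nrgn (neurogranin) at 111 against 31.2 CPM (3.55-fold, 2.34 to 5.31). Slc17a7 stood there at 15 CPM, the highest of the 6 groups but from only 5 counts. Cortex genes summed to 1013 CPM in Hap1-led spots, under the 1839 CPM of the remaining spots. Imprinted genes outside the ranking, in contrast, summed to between 7610 and 9210 CPM in every group, against 4321 CPM in the remaining spots. The list includes Meg3 of the Dlk1 locus, its most abundant gene, which did not pass, so the sums do not stand for the higher genes alone.

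**Figure D3:**
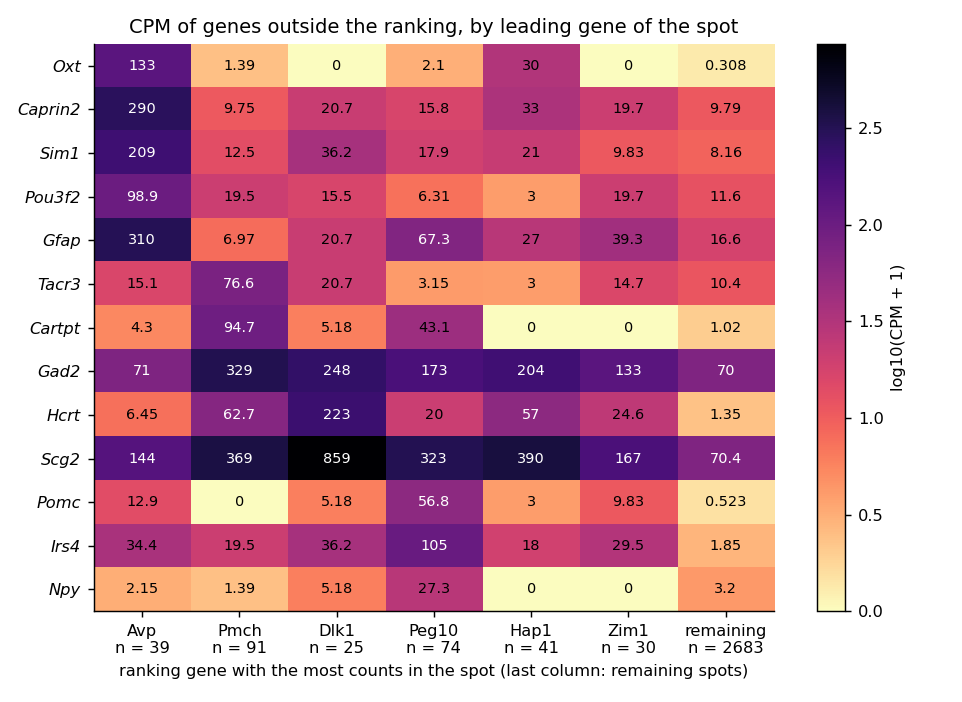
CPM of 13 genes outside the ranking in spots grouped by the ranking gene with the most counts (columns, with the number of spots) and in the remaining spots (last column); color is log10(CPM + 1) and each cell prints its CPM. Oxt, Caprin2, Sim1, Pou3f2 and Gfap peak in Avp-led spots, Tacr3 and Cartpt in Pmch-led, Hcrt and Scg2 in Dlk1-led, and Pomc, Irs4 and Npy in Peg10-led spots.

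Single spots were also compared by whether they held a count of a ranking gene, whichever gene led them. Oxt was found in 21 of the 63 spots with an Avp count (33.3%) and in 2 of the 237 without (0.844%), at median depths of 9452 and 6712 counts. Hcrt was found in 34 of the 150 spots with a Pmch count (22.7%) and in 10 of the 150 without (6.67%), and Cartpt in 42 (28.0%) and 11 (7.33%), at median depths of 7292 and 6647.5. With a Dlk1 count, at median depths of 9525 and 5692, Hcrt was found in 23 of 123 spots (18.7%) and without one in 21 of 177 (11.9%). Pomc was found in 18 of those 123 (14.6%) and in 3 of the 177 (1.69%). Pomc was found in 20 of the 194 spots with a Peg10 count (10.3%) and in 1 of the 106 without (0.943%), at median depths of 8169 and 5432.5. In the remaining spots the shares with a count were 0.335% for Oxt, 0.932% for Hcrt, 1.08% for Cartpt and 0.596% for Pomc.

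Levels declined gradually across the boundary. For ranks 1 to 100, 101 to 200 and 201 to 300, Scg2 gave 331, 380 and 306 CPM, and the next 100 spots, just outside, gave 237 CPM. Zdbf2 gave 201, 170 and 163 CPM, and then 131 CPM. Baiap3 gave 44.8, 61.7 and 53.7 CPM, and then 40.1 CPM. From rank 601 on these 3 genes stood at 61.7, 29.4 and 2.91 CPM. Slc17a7 ran the other way, at 4.27, 3.19 and 6.08 CPM inside the group, 28.0 CPM in the next 100 spots and 124 CPM from rank 601 on. Prkcd was 4.27, 6.38 and 8.11 CPM inside and still 6.08 CPM in the next 100. The spots ranked 301 to 400 thus lay nearer to the group than to the lowest ranks in Scg2, Zdbf2, Baiap3 and Prkcd, and in between in Slc17a7.

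**Figure D4:**
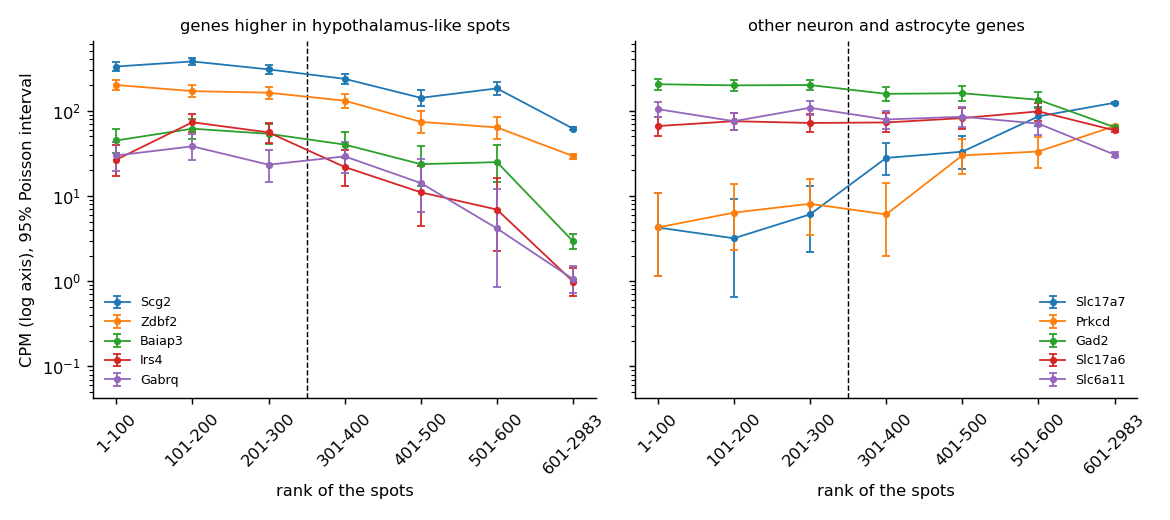
CPM (log axis) with 95% exact Poisson intervals for counting error, by rank of the spots, for 5 genes higher in hypothalamus-like spots (left) and 5 other neuron and astrocyte genes (right); the dashed line is the boundary at rank 300. Scg2, Zdbf2, Baiap3, Irs4 and Gabrq decline past the boundary, while Slc17a7 climbs. Prkcd climbs only beyond rank 400.

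Some levels differed with the depth of the spots. The 60 spots chosen on 1 to 3 ranking counts had a median depth of 3991 counts. Their Scg2 level was 215 CPM, Peg3 437 CPM, Nnat 152 CPM and Gad2 203 CPM, against 70.4, 195, 27.3 and 70.0 CPM in the remaining spots. Irs4, Gabrq and Baiap3 rested there on 5 counts each, or 19.5 CPM. With the group ordered by depth, Pomc gave 4.88 CPM in the 100 shallowest and 34.9 CPM in the 100 deepest spots. Irs4 gave 22.0 and 67.4 CPM there. Nnat (139 and 147 CPM) and Gad2 (198 and 169 CPM) differed less between these ends. The levels of these genes in the middle 100 spots are not given here. The GABA neuron list, which includes Gad2, summed to 588, 744 and 437 CPM in the shallowest, middle and deepest 100 spots.

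Spots ranked the same way on other genes served as a closer comparison: the top 300 by 6 thalamus genes (Prkcd, Rora, Tcf7l2, Ntng1, Adarb1 and Plekhg1), by 6 striatum genes (among them Pde10a, Rgs9 and Drd1) and by 3 GABA neuron genes (Gad1, Gad2 and Slc32a1), leaving out spots also in the group. The genes of both rankings were left out of the counts. Median depths were 8274.5, 6548 and 6443.5 counts. The overlap was 0, 13 (4.33%) and 62 (20.7%) spots. Against thalamus-ranked spots 705 of 6133 features (11.5%) were higher in hypothalamus-like spots and 461 (7.52%) lower. Against striatum-ranked spots 309 of 6123 (5.05%) were higher and 344 (5.62%) lower, and against GABA-ranked spots 201 of 6099 (3.3%) and 218 (3.57%). Of the 209 features higher than in the remaining spots, 186, 170 and 125 were also at least 2-fold higher than in thalamus-, striatum- and GABA-ranked spots, and 111 than in all 3.

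Irs4 was one of the 111, at 52.0 CPM in hypothalamus-like spots, against 0.726, 1.36 and 1.72 CPM in thalamus-, striatum- and GABA-ranked spots. Baiap3 gave 53.4 CPM, against 1.82, 0.910 and 6.90 CPM. Nnat gave 134 CPM, against 6.54, 23.6 and 20.7 CPM, and Zdbf2 178 CPM, against 18.2, 42.7 and 48.3 CPM. Gfap gave 81.7 CPM, against 3.27, 9.10 and 13.8 CPM. Oxt had no count in thalamus- or striatum-ranked spots and 0.575 CPM in GABA-ranked ones. Imprinted genes outside the ranking were higher in 13, 13 and 11 of 41 in the 3 comparisons, and none was lower.

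Other genes were not at least 2-fold higher than in all 3 sets. Gad2 was lower than in the GABA-ranked spots that it helped to rank, 201 against 480 CPM. Six3 gave 22.3 against 62.1 CPM, so that of the 3 transcription factors only Sim1 (48.5 against 10.9 CPM) and Pou3f2 (25.8 against 11.5 CPM) were also higher against GABA-ranked spots. Peg3 was 583 CPM, against 327 CPM in thalamus-ranked spots (1.78-fold) and 257 CPM in GABA-ranked ones (2.27-fold), and Nap1l5 301 CPM, against 159 CPM in GABA-ranked spots (1.90-fold). Vgf was under 2-fold against all 3 sets.

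**Figure D5:**
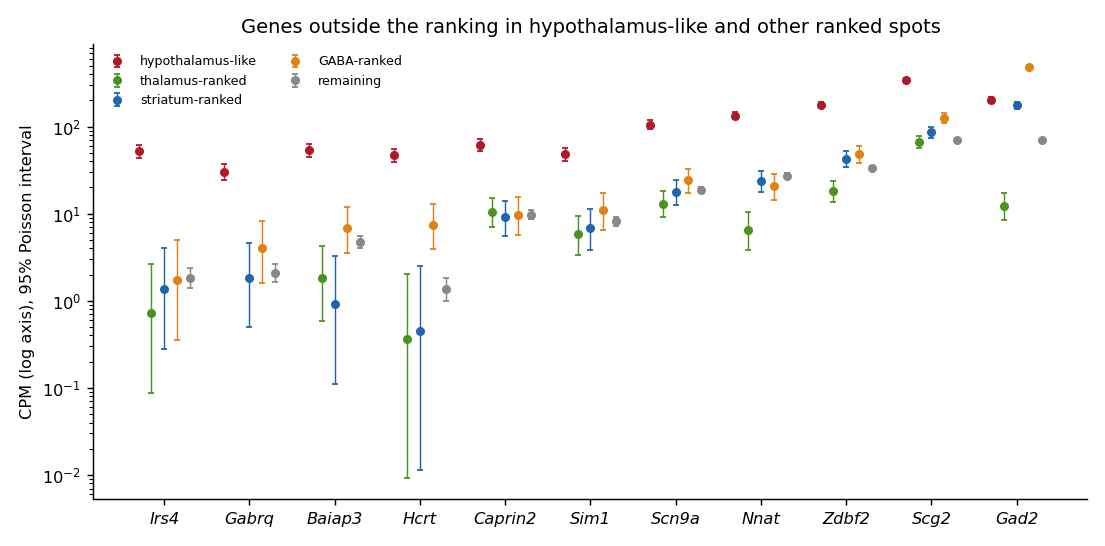
CPM (log axis) with 95% exact Poisson intervals for counting error in hypothalamus-like, thalamus-ranked, striatum-ranked, GABA-ranked and remaining spots; a set with no count, such as Gabrq in thalamus-ranked spots, has no point. Irs4 stands at 52.0 CPM in hypothalamus-like spots and at most 1.85 CPM in the other 4 sets, while Gad2 is highest in GABA-ranked spots, at 480 CPM.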

How the data were processed

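The authors deposited, per section, a sparse matrix of whole-number counts per feature and spot barcode, with no normalization. Per the submitters' processing notes, STARsolo and genome build mm39 were used; the STARsolo version, the merging of molecular tags and the use of introns and strand are not given in the sources used here. The place of a spot on the section was not used here. The spots, lists and comparators were chosen with earlier results of these data known. Brain spots with at least 3000 counts and 200 features were ranked by the share of counts from the 6 genes (ties in barcode order), and no doublet caller was run. Counts were summed over spots and scaled to CPM over all counts of the group. Ratios carry 95% exact conditional binomial intervals and levels exact Poisson intervals, for counting error only. Spots are no replicates, so no p-value is given.

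Named genes were the 20 largest ratios at 50 CPM or more in the group, the 12 largest in the other direction, from each of 27 lists the 2 to 5 with most CPM and those past the size rule, and the 3 largest ratios among non-coding genes; others named were chosen after their values were seen. Biotype and chromosome came by gene ID from GENCODE M21 on GRCm38 (35500 of 40276 features matched). Steps were tested on simulated data. Python 3.11.15, numpy 2.4.6, scipy 1.17.1, pandas 2.3.3 and matplotlib 3.10.9 were used. Alternatives changed the depth minimum, the number of spots, the scaling, the floor and the ranking genes.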

Additional observations from a re-analysis of the deposited data

Results flagged for a closer look

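Brain spots too shallow for the ranking also held the ranking genes. The 1097 spots with 500 to 2999 counts, which the ranking leaves out and of which only those with 1500 counts or more entered 1 alternative, gave 278 counts of the 6 genes in 1784172 counts, or 156 CPM (155.81 before rounding), against 144 CPM over the whole brain section and 8.69 CPM in the heart section. The level was thus near the average of the section. Of these counts 32 were of Pmch, and 27 of the spots held at least 3 counts of the 6 genes. The 912 barcodes below those limits held 23 such counts in 156957.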

How the results depend on the processing

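With 1 library per tissue, nothing here speaks of other sections, and depth limits genes under 20 CPM. No paired analysis was possible because no group has replicates. Of 14 alternatives, 3 were chosen after seeing the data. The counts of imprinted genes (12), granule genes (6) and held-out genes at 2-fold or more (6) stayed within 1.5 times under the alternatives run for them. The held-out count reached that limit, falling to 4 with 150 spots, where Pmch gave 1.99-fold. Higher features numbered 347 under the scaling outside ribosomal, mitochondrial and small RNA, 91 at a floor of 50 CPM and 485 at 5 CPM, and lower features 201 with 600 spots, 213 at 50 CPM and 570 at 5 CPM. Neuropeptide genes higher numbered 2 at a depth minimum of 6000 counts, 2 with 600 spots, 8 under that scaling, 0 at 50 CPM and 12 at 5 CPM. Transcription factors higher numbered 1 with 600 spots, 5 under that scaling, 1 for the per-spot mean, 0 at 50 CPM and 9 at 5 CPM, and receptors 2 and 12 at those floors. Held-out Avp was 0.516-fold with 150 spots and 64.6-fold at a depth minimum of 6000. Ttn, 0.457-fold as reported, became 1.60 at that depth minimum, 1.30 with 600 spots and 1.88 ranked without Pmch and Avp. Of 92 named genes past the size rule, 74 kept the 2-fold under every alternative, though the changes of floor leave every ratio as it is. Among the others Aqp4 (lowest 1.33), Pou3f2 (1.58), Six3 (1.79), Impact (1.86), Lepr (1.03), Hcrtr2 (1.55), Pcsk1 (1.71), Vgf (1.92) and Pdgfra (1.47) fell below 2-fold. The lower genes Cpne6 (highest ratio 0.719), Dsp (0.710), Tcf7l2 (0.622), Ociad2 (0.576), Dio2 (0.540), Ntng1 (0.529) and Adarb1 (0.511) also lost the 2-fold under some alternatives. The cause was not tested.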

Other observations

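Genes on the X chromosome were called higher in hypothalamus-like spots more often than genes elsewhere. Of 234 X-linked features tested 26 were higher (11.1%), while the share over all chromosomes was 3.44% and that of the autosomes lay between 0.61% (chromosome 19) and 4.44% (chromosome 6). None of 33 mitochondrial and 6 Y-linked features was higher, and 4 X-linked features (1.71%) were lower. This was noticed after the values were seen and was not tested. The 26 include Irs4, Gabrq, Gpr101, Zcchc12, Dgkk and Pcsk1n, which were described above, and Tmem255a, Gpr165, Ap1s2, Clcn5, Tspyl2, Tro, Usp11 and Klhl13.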
